A study of Mus musculus with 19 samples.

Results

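The T-cell receptor beta (TCRβ) repertoire of peripheral blood was compared between mice that carried Mettl5-knockout melanomas and mice that carried control melanomas. The data were chosen by file type: every clonotype table and every table of V and J gene usage of the series, which cover 9 of its 19 samples and 18 of its 31 files. Of these samples 5, KO 1 to KO 5, came from C57BL/6N mice inoculated with B16-F10 cells with a knockout of Mettl5, and SCR 1 to SCR 4 came from mice inoculated with B16-F10 cells with a scrambled control. B16-F10 is a melanoma line of C57BL/6 mice, and the METTL5 enzyme methylates ribosomal RNA. The knockout was in the injected tumour cells and not in the host, so all T cells studied here were of the same host genotype. In both groups mononuclear cells of the blood were taken 12 days after the tumour cells were given, and total RNA was used. The labels give B16-F10 as the source of these samples, although the protocol describes blood, and they give neither the age of the animals nor the amount of blood or RNA per sample. Nor do they state that each sample was 1 mouse, so p-values measure the spread between samples, which are called mice here. The tables hold TCRβ sequences only, so the tumour genotype was taken from the labels. The other samples of the series are ribosome footprints and RNA of cultured cells and sorted leukocytes of tumours.

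Each T cell carries a TCRβ chain made by joining 1 V, 1 D and 1 J gene segment of the Trb locus. Bases are trimmed and added without a template at the joints, so the junction, called CDR3, differs between cells and lies over the peptide when the receptor binds antigen. Cells that descend from the same T cell keep the same rearrangement and form a clone, and an expanded clone takes a larger share of the receptor reads of blood. A CDR3 protein sequence can also be made by several different rearrangements, which is called convergent recombination and is favoured for junctions that need few added bases.

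A clonotype is used here as the authors listed it, as 1 CDR3 nucleotide sequence with 1 V and 1 J gene, and its share is its percentage of the TCRβ reads of the mouse. Read totals ranged from 5277004 to 6912106 per mouse, and 35788 to 65881 clonotypes were listed. Reads of 9 V genes were nearly absent, as described below, so clonotype counts and shares come almost entirely from the other V genes. Most listings were very rare. Clonotypes of at least 0.001% numbered 1148 to 5622 and held 96.8 to 97.9% of reads, whereas the 34640 to 60259 listings below 0.001% had a median of 2 reads in every mouse. Many rare listings resembled abundant ones. Some listings below 0.001% were near-identical to a listing of the same mouse with at least 100 times the reads. They had the same CDR3 nucleotides or differed at 1 base. These made up 12.2 to 16.85% of the listings below 0.001% in SCR and 17.8 to 21.6% in KO mice, without overlap. Of all listings, 28.3 to 39.6% in SCR and 42.8 to 48.2% in KO mice had CDR3 nucleotides also listed with another V or J gene. The samples also shared listings. Of the clonotypes of at least 0.01% in 1 mouse, 33.2 to 62.1% were listed below 0.001% in any given other mouse in 70 of 72 ordered pairs of mice, and 71.3% of those of KO 2 were so listed in KO 1 and 71.2% of those of KO 4 in KO 5. By contrast, a pair of mice shared only 2 to 42 clonotypes at 0.001% or more in both. Of the rare listings of a mouse, 15.6 to 22.6% in SCR and 11.4 to 14.4% in KO mice reached 0.01% in another mouse. Results that rest on the rare listings are therefore given with and without them where both were computed.

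The largest clonotype of each mouse is shown first, because its sequence and share set the scale for the size classes. Each line gives the CDR3 from its first conserved codon to its last, with the bases that the authors' table places between the V and the J segment in capitals (the D segment and added bases).
SCR 1, Trbv12-2 and Trbj2-2: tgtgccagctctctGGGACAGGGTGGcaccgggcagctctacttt
SCR 2, Trbv14 and Trbj2-2: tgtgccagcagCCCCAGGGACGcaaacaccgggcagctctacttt
SCR 3, Trbv16 and Trbj2-2: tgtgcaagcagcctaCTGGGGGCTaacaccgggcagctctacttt
SCR 4, Trbv14 and Trbj2-2: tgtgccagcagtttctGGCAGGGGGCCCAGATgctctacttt
KO 1, Trbv4 and Trbj2-7: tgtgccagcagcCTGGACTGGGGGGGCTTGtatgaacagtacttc
KO 2, Trbv12-1 and Trbj2-7: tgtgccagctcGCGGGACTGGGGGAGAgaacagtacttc
KO 3, Trbv16 and Trbj1-2: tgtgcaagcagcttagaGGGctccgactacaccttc
KO 4, Trbv4 and Trbj1-2: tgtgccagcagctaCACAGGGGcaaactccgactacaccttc
KO 5, Trbv12-2 and Trbj2-2: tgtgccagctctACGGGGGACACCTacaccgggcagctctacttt
No mouse shared its largest clonotype with another as an abundant clone. Each of these 9 sequences was listed in 6 to 8 of the other mice, but its highest share there was 0.0019% for that of KO 2 and 0.000246% or less for the rest. The largest clonotype held 0.339% of reads in SCR 1, 0.446% in SCR 2, 0.249% in SCR 3 and 0.200% in SCR 4. It held 0.135% in KO 1, 1.31% in KO 2, 0.238% in KO 3, 0.176% in KO 4 and 0.129% in KO 5. KO 2 stood apart, with a clonotype of 80005 reads that was joined from Trbv12-1 and Trbj2-7, while its second largest held 0.314%. Trbj2-2 was used by 5 of the 9, namely those of all 4 SCR mice and of KO 5. Over all reads, Trbj2-2 held 16.5 ± 1.39% in SCR and 17.1 ± 0.537% in KO mice (edgeR adjusted p = 0.383). The junction of KO 3 had 3 bases between V and J and no added base, whereas that of KO 1 had 18, of which 5 were counted as added.

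Reads were spread differently over the size classes in the groups. Each class is a fixed share of the reads of a mouse, so it also depends on the number of clonotypes read, given below. Nor can tumour genotype be told apart from input, which was not given. Blood of mice with control tumours had more clonotypes above 0.1% of reads, and blood of mice with Mettl5-KO tumours had more clonotypes in every smaller class. Clonotypes above 0.1% numbered 389, 412, 162 and 205 in SCR 1 to 4, and 4, 58, 69, 73 and 3 in KO 1 to 5. The groups did not overlap, and the mean was 292 ± 127 (SD, n = 4) against 41.4 ± 35.0 (SD, n = 5), 7.05-fold lower in KO (exact permutation test, two-sided, p = 0.0159, adjusted p = 0.0298). These clonotypes held 57.4, 81.5, 20.2 and 25.7% of reads in SCR 1 to 4 and 0.452, 7.80, 7.84, 8.29 and 0.360% in KO 1 to 5. Their share of reads was thus 9.33-fold lower in KO (46.2 ± 28.7% against 4.95 ± 4.15%, exact permutation p = 0.0159, adjusted p = 0.0298). SCR 1 and SCR 2 were far above SCR 3 and SCR 4, and KO 1 and KO 5 had almost none. The limit of a class matters here: with limits 2-fold lower, the number of clonotypes in the top class differed by -183.45 (exact permutation p = 0.254), and with limits 2-fold higher their share of reads differed by -14.05 percentage points (exact permutation p = 0.127).

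**Figure D1:**
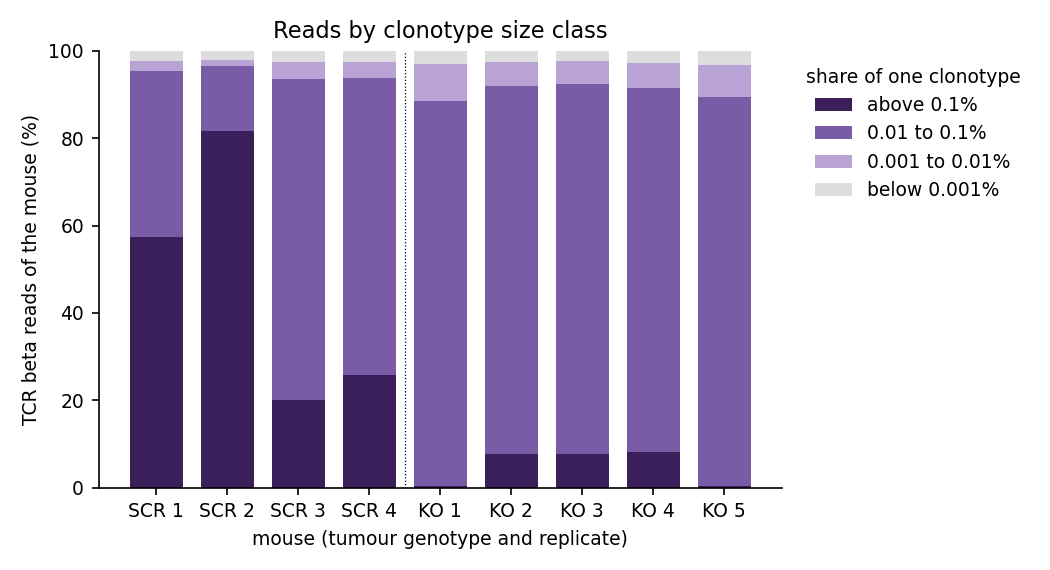
Percentage of the TCRβ reads of each mouse (vertical axis) in 4 classes of clonotype share (colours), for 4 SCR and 5 KO mice (horizontal axis). The darkest part, clonotypes above 0.1%, holds 20.2 to 81.5% of reads in SCR mice and at most 8.29% in KO mice.

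Clonotypes of 0.01 to 0.1% numbered 812, 382, 1560 and 1459 in SCR 1 to 4 and 3337, 2005, 2000, 2107 and 2775 in KO 1 to 5. They were 2.32-fold more numerous in KO mice, without overlap (1053 ± 557 against 2445 ± 594, exact permutation p = 0.0159, adjusted p = 0.0298). This class held 38.1, 15.1, 73.3 and 67.9% of reads in SCR 1 to 4 and 83.3 to 89.1% in the 5 KO mice (exact permutation p = 0.0159, adjusted p = 0.0298). With limits 2-fold higher the share of reads differed by 3.94 percentage points (exact permutation p = 0.746). Clonotypes of 0.001 to 0.01% numbered 526, 354, 962 and 884 in SCR and 2281, 1352, 1256, 1380 and 1956 in KO mice, a 2.41-fold difference with the same p. They held 2.86 ± 1.32% of reads in SCR and 6.42 ± 1.37% in KO mice. Listings below 0.001% numbered 36878, 34640, 44632 and 41075 in SCR and 60259, 46589, 44992, 49111 and 57474 in KO mice. They were 1.31-fold more numerous in KO mice without overlap (exact permutation p = 0.0159, adjusted p = 0.0298). Among listings of at least 10 reads the difference in this class was 320.55 (exact permutation p = 0.254). Their share of reads, 2.34 ± 0.186% against 2.83 ± 0.321%, overlapped between the groups and did not pass (exact permutation test, adjusted p = 0.0752).

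In the plot of share against rank, each curve falls steeply through 0.001%. That of KO 2 also falls from 1.31% at rank 1 to 0.146% at rank 3.

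**Figure D2:**
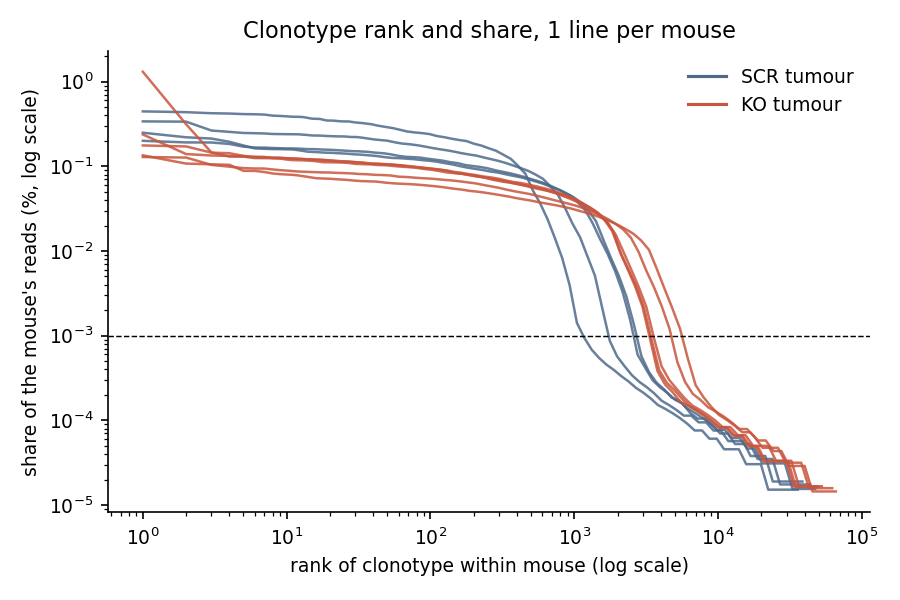
Share of reads (vertical axis, log scale) against rank (horizontal axis, log scale) of the clonotypes of each mouse, 1 line per mouse; the dashed line marks 0.001%. SCR curves cross the dashed line at ranks 1148 to 2684, and KO curves cross it at ranks 3325 to 5622; the line that starts at 1.31% is KO 2.

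The number of clonotypes of at least 0.001% was 1727, 1148, 2684 and 2548 in SCR 1 to 4 and 5622, 3415, 3325, 3560 and 4734 in KO 1 to 5. KO mice had 2.04-fold more, with no overlap (2027 ± 722 against 4131 ± 1009, exact permutation p = 0.0159, adjusted p = 0.0298). Such clonotypes had a median of 1456.5 to 2446 reads in SCR and 978 to 1330 in KO mice. Shares of a mouse add up to its whole, so the number of clonotypes and their shares are not independent measurements. The number of cells and the amount of RNA per sample were not given in the sources used here, so tumour genotype and input cannot be told apart, nor can more cells of a clone and more receptor RNA per cell. Over all listings, after each mouse was thinned to 5277004 reads, there were 38605, 32693, 43705 and 42245 clonotypes in SCR and 59451, 47138, 45874, 50101 and 58133 in KO mice. The ratio was then 1.33, again without overlap (39312 ± 4906 against 52139 ± 6281, exact permutation p = 0.0159, adjusted p = 0.0298). The size of this difference, 12827 clonotypes, depended on the rare listings. It was 2434.6 with at least 10 reads (exact permutation p = 0.0317, adjusted p = 0.0595, not passing), 5182 merged by protein sequence and 6079 merged by nucleotide sequence.

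The smallest number of clonotypes that together held 50% of the reads was 320, 194, 532 and 493 in SCR and 1244, 687, 680, 709 and 983 in KO mice. It was 2.24-fold higher in KO mice, without overlap (385 ± 157 against 861 ± 249, exact permutation p = 0.0159, adjusted p = 0.0298). The inverse Simpson index, the number of equally large clonotypes that would give the same concentration of reads, was 867, 521, 1435 and 1345 in SCR and 3357, 1448, 1837, 1928 and 2680 in KO mice. It differed 2.16-fold with the same p, and SCR 3 at 1435 and KO 2 at 1448 were nearly level. Shannon entropy (natural log) was 7.21 ± 0.471 in SCR and 8.06 ± 0.279 in KO mice, and clonality, which is 0 when all listings are equally large, was 0.318 ± 0.0365 and 0.257 ± 0.0178. Both passed (exact permutation p = 0.0159, adjusted p = 0.0298). Among clonotypes of at least 0.001% alone, entropy was 7.03 ± 0.466 in SCR and 7.87 ± 0.267 in KO mice. Clonality there was 0.0704 ± 0.0135 and 0.0527 ± 0.00580 (both exact permutation p = 0.0159, adjusted p = 0.0340). The difference in clonality was then -0.0177, against -0.0610 over all listings, so its size depended on the rare listings.

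Measures of the very largest clones did not pass. The 10 largest clonotypes held 2.66, 4.14, 1.86 and 1.76% of reads in SCR 1 to 4 and 0.958, 2.65, 1.41, 1.40 and 1.013% in KO 1 to 5 (exact permutation p = 0.0952, adjusted p = 0.130). KO 2 lay among the SCR mice, and the other 4 KO mice lay below all SCR mice. Without KO 2 the difference of means was -1.41 percentage points and the exact permutation p was 0.0286. With the largest clonotype of each mouse left out it was -1.34 points (exact permutation p = 0.0159). The largest 1% of the clonotypes of at least 0.001%, a fixed share of the clones and not a fixed number, held 4.62 ± 0.2796% of the reads of that class in SCR and 4.59 ± 0.559% in KO mice (exact permutation p = 0.921). The Gini index of these clonotypes, which is 0 for equal sizes, was 0.555, 0.597, 0.527 and 0.533 in SCR and 0.477, 0.520, 0.512, 0.519 and 0.503 in KO mice. Sizes were more equal in KO mice without overlap, with a difference of -0.0469 (exact permutation p = 0.0159, adjusted p = 0.0298).

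**Figure D3:**
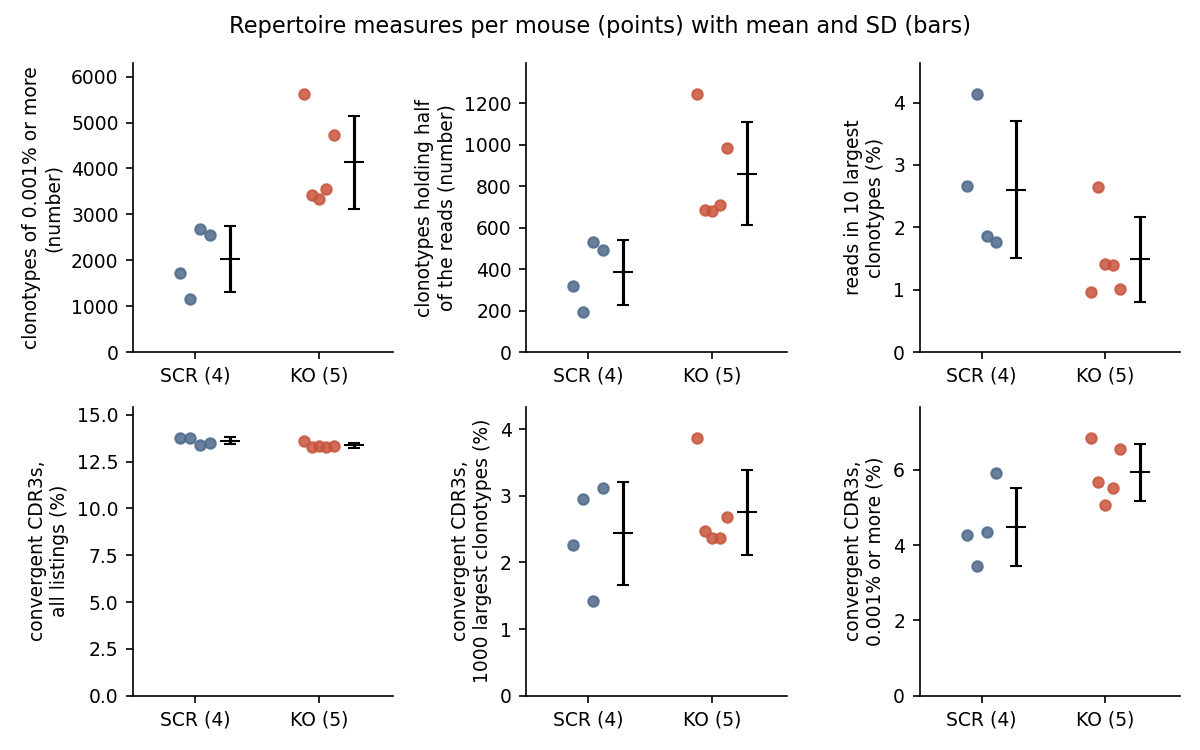
Values per mouse (points, vertical axis) with mean and SD (bars) for 4 SCR and 5 KO mice in 6 panels; convergent CDR3s are those with 2 or more nucleotide sequences. The upper left and upper middle panels show groups that do not overlap (1148 to 2684 against 3325 to 5622 clonotypes, and 194 to 532 against 680 to 1244), and the groups overlap in the other 4.

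In all, 30 measures were tested over the 126 ways to assign 5 of 9 mice to KO, for which the smallest two-sided p is 0.0159. After adjustment over the 30, 16 measures passed, and 19 had an exact p below 0.05 before it. The same tests were run after listings were left out that had under 1% of their share in another mouse, an alternative chosen after the data were seen. There were then 32130 ± 5311 clonotypes in SCR and 45355 ± 6105 in KO mice, 293.5 ± 126 and 41.8 ± 35.5 of them above 0.1%, and 50% of the reads were held by 383 ± 156 and 856 ± 247. Within clonotypes of at least 0.001% alone, 50% of the reads were held by 372 ± 151 and 825 ± 235, and the inverse Simpson index was 993 ± 405 and 2121 ± 707. The exact permutation p was 0.0159 for each of these.

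CDR3 lengths by reads did not differ past the threshold. The length with most reads was 13 or 14 residues in every mouse, and CDR3s of 10 to 15 residues held 93.8 ± 0.768% of reads in SCR and 93.8 ± 0.524% in KO mice (exact permutation p = 1). The mean length by reads was 13.51 ± 0.0703 residues in SCR and 13.55 ± 0.0389 in KO mice (exact permutation p = 0.238), a difference of 0.0465 residues. With each listing counted once, the mean was 13.80 ± 0.0925 in SCR and 13.95 ± 0.0432 in KO mice, 0.148 residues longer and without overlap (exact permutation p = 0.0159, adjusted p = 0.0298). Among clonotypes of at least 0.001% the direction was the opposite, at 13.94 ± 0.103 in SCR and 13.83 ± 0.0464 in KO mice (exact permutation p = 0.0952). Among CDR3s that start with cysteine and end with phenylalanine the difference was 0.0324 residues (exact permutation p = 0.0635). The mean number of bases added at the joints, weighted by reads, was 3.23 ± 0.202 in SCR and 3.41 ± 0.116 in KO mice (exact permutation p = 0.127).

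Convergent coding, the share of CDR3 protein sequences listed with 2 or more nucleotide sequences, did not pass in 3 counts as listed, and its direction depended on which listings were kept. Over all listings it was 13.8, 13.7, 13.4 and 13.5% in SCR and 13.6, 13.3, 13.3, 13.3 and 13.3% in KO mice (exact permutation p = 0.0794, adjusted p = 0.113). The difference was -0.239 percentage points as listed. It was -0.441 points with near-identical listings left out, which was chosen after the data were seen (exact permutation p = 0.0159, adjusted p = 0.0280), and 1.601 points with listings of at least 10 reads (exact permutation p = 0.0317, adjusted p = 0.0595). Among the 10000 largest clonotypes of each mouse it was 7.28 ± 0.701% and 7.42 ± 0.301% (exact permutation p = 0.714), and among the 1000 largest 2.43 ± 0.770% and 2.75 ± 0.642% (exact permutation p = 0.524). In each of the 3 the groups overlapped. At 0.001% or more there were 1148 to 2684 clonotypes in SCR and 3325 to 5622 in KO mice. The 10000 largest therefore include rare listings in every mouse, and more of them in SCR mice, while the 1000 largest include none. With listings merged by CDR3 nucleotide sequence, an alternative chosen after the data were seen, the value among the 10000 largest was 9.12 ± 0.787% in SCR and 7.91 ± 0.195% in KO mice, lower in KO without overlap (exact permutation p = 0.0159, adjusted p = 0.0265). Reads in convergent CDR3s were 53.2, 59.5, 48.4 and 51.5% in SCR and 45.4, 47.4, 46.6, 48.2 and 46.9% in KO mice, lower in KO without overlap (exact permutation p = 0.0159, adjusted p = 0.0298). The direction depended on rare listings. With nucleotide sequences left out that had under 1% of the reads of a sequence of the same CDR3 1 base away, KO mice were 0.689 percentage points higher (exact permutation p = 0.333), and among clonotypes of at least 0.001% they were 3.88 points higher (exact permutation p = 0.0635).

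Among clonotypes of at least 0.001%, convergent CDR3s numbered 68, 35, 110 and 140 in SCR 1 to 4 and 354, 181, 159, 184 and 287 in KO 1 to 5. As a share of the distinct CDR3s this was 4.26, 3.43, 4.35 and 5.92% in SCR and 6.86, 5.67, 5.06, 5.51 and 6.55% in KO mice (exact permutation p = 0.0635, adjusted p = 0.0952). SCR 4 lay within the KO range, and the other SCR mice lay below it. Without SCR 4 the difference was 1.92 percentage points with an exact permutation p of 0.0357 (adjusted p = 0.0595). The mice differ in the number of clonotypes in this count, which the count over the 1000 largest holds equal. The 2 most abundant nucleotide sequences of such a CDR3 differed at 1.81 to 2.68 bases on average. Of these pairs, 41.0 to 73.5% differed at exactly 1 base, and 46.9 to 74.3% had the same V and J gene. Clonotypes with a convergent CDR3 had a mean of 4.69 added bases in SCR 1 and 6.42 in SCR 2, against 4.24 and 3.87 for the rest. In every other mouse the convergent ones had the lower mean, such as 2.19 against 4.44 in KO 4 and 3.93 against 3.99 in KO 3.

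The CDR3s of large clones with several codings are shown because they let convergent coding be read base by base. Among the 100 largest clonotypes of each mouse, a CDR3 with 3 or more nucleotide sequences of at least 0.001% there was found 7 times, and 4 follow. Of these, 3 had the most sequences; the last was tied with others at 3 sequences and had more reads than they had. The first was a CDR3 of 13 residues in KO 5 with 5 sequences, all joined to Trbj1-2, which together held 0.201% of reads. Capitals mark bases that differ from the most abundant sequence of the mouse.
KO 5, sequence 1, Trbv16: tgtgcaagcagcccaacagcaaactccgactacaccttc
KO 5, sequence 2, Trbv12-2: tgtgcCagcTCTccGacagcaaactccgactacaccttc
KO 5, sequence 3, Trbv12-1: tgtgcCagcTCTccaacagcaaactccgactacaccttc
KO 5, sequence 4, Trbv26: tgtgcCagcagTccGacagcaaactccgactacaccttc
KO 5, sequence 5, Trbv26: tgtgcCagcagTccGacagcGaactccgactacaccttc
The 5 sequences had 4560, 3365, 2679, 2031 and 103 reads. Their 4 V genes were Trbv16, Trbv12-2, Trbv12-1 and Trbv26, and no sequence had more than 3 added bases.

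In KO 2 a CDR3 of 14 residues had 4 sequences joined to Trbj2-2, with 5667, 4337, 2138 and 1547 reads.
KO 2, sequence 1, Trbv12-2: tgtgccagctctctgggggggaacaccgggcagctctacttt
KO 2, sequence 2, Trbv16: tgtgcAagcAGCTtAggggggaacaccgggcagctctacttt
KO 2, sequence 3, Trbv4: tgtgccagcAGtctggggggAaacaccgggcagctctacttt
KO 2, sequence 4, Trbv4: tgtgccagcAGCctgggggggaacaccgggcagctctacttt
Of these, 3 had no added base and 1 had 1 added base.

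Another CDR3 of 13 residues, joined to Trbj1-1, had 4 sequences in KO 4, with 6361, 3545, 2360 and 1042 reads.
KO 4, sequence 1, Trbv16: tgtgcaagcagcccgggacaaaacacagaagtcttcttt
KO 4, sequence 2, Trbv16: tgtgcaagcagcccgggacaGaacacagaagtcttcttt
KO 4, sequence 3, Trbv4: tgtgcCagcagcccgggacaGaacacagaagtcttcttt
KO 4, sequence 4, Trbv26: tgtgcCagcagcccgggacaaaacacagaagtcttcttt
The same CDR3 protein sequence, again joined to Trbj1-1, had 3 sequences in SCR 3, with 13726, 4025 and 2303 reads.
SCR 3, sequence 1, Trbv16: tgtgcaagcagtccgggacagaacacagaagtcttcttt
SCR 3, sequence 2, Trbv16: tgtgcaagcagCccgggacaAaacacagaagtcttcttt
SCR 3, sequence 3, Trbv12-1: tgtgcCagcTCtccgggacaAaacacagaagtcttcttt
This CDR3 reached 0.001% in 6 of the 9 mice.

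Over all listings, CDR3s were ranked by their number of nucleotide sequences per mouse, summed over the 9 mice. A sequence found in several mice thus counts in each. The CDR3 ranked 1, with a sum of 183, had 12 residues and 15 to 30 nucleotide sequences in each mouse, of which 58 were distinct. Nearly all of its reads, 99.98%, were joined to Trbj2-7, and its most used V genes were Trbv12-1 with 43.4% of its reads, Trbv16 with 19.8% and Trbv14 with 17.8%. At 0.001% or more it had 1, 2, 2 and 3 nucleotide sequences in SCR 1 to 4 and 8, 2, 0, 3 and 8 in KO 1 to 5. Its most abundant sequence in each mouse is given below, with bases that differ from that of SCR 1 in capitals.
SCR 1, Trbv12-1: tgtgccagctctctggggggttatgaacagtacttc
SCR 2, Trbv12-2: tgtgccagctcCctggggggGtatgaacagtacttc
SCR 3, Trbv16: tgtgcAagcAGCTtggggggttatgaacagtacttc
SCR 4, Trbv12-1: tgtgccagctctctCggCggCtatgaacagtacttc
KO 1, Trbv12-2: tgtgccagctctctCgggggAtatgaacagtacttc
KO 2, Trbv16: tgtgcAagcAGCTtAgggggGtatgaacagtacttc
KO 3, Trbv16: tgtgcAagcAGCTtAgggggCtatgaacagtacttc
KO 4, Trbv14: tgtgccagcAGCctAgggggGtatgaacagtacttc
KO 5, Trbv12-1: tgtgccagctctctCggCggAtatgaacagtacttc
The 9 leading sequences were all different, and all ended alike. These leading sequences had 0 to 3 added bases. In KO 3 the leading sequence had 11 reads, against 2530 to 5466 in the other mice. The CDR3s ranked 2 and 3, with sums of 177 and 165, both had 14 residues and Trbj2-7. They had more distinct nucleotide sequences over the 9 mice, 71 and 73.

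CDR3 protein sequences shared between mice had fewer added bases. Of 22810 CDR3s that reached 0.001% in any mouse, 2530 did so in 2 or more mice and 1 did so in all 9. Clonotypes with a shared CDR3 made up 25.7 to 28.3% of the clonotypes of at least 0.001% of each mouse and held 28.8 to 30.3% of reads in SCR and 25.4 to 28.1% in KO mice. Their mean number of added bases was 2.098, 2.14, 2.61 and 2.21 in SCR and 2.33, 2.1003, 2.098, 2.15 and 2.23 in KO mice. For clonotypes whose CDR3 reached that level in 1 mouse only it was 5.06, 4.75, 4.77 and 5.44 in SCR and 4.68, 4.72, 4.66, 4.94 and 4.63 in KO mice. The median was 1 to 2 added bases for shared CDR3s and 3 for the others in each mouse, a smaller gap than that of the means. By the mean, the shared CDR3s were lower in 9 of 9 mice, and the ranges of the means did not overlap. They were also shorter, at 13.1 to 13.5 against 13.97 to 14.35 residues. Of the shared CDR3s, 6.13 to 16.9% were convergent within a mouse, and of the others 2.39 to 3.95%, with the shared ones higher in 9 of 9 mice. The mice share these CDR3s, so they are not independent and no test was made.

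V gene usage by reads did not differ between the groups past the threshold. Of 16 V genes tested, 0 passed (0% of those tested) with edgeR's quasi-likelihood test and Benjamini-Hochberg adjustment, 1 had an unadjusted p below 0.05, and DESeq2 called 0, with 1 at an unadjusted p below 0.05. Trbv16 was the most used V gene, with 20.9, 17.9, 20.1 and 18.3% of reads in SCR 1 to 4 and 19.7, 19.8, 18.8, 20.1 and 18.9% in KO 1 to 5 (log2 fold change 0.01, SE 0.05). It was followed by Trbv4 with 12.5 ± 0.561% and 13.3 ± 0.534%, Trbv12-1 with 13.1 ± 1.75% and 12.2 ± 0.577%, Trbv15 with 9.39 ± 0.974% and 9.81 ± 0.540%, and Trbv20 with 8.997 ± 0.747% and 9.36 ± 0.835% (SCR and KO, SD, n = 4 and 5). The groups overlapped for each of these 5 genes.

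The smallest p was that of Trbv12-2, with 9.17, 9.71, 8.94 and 11.0% of reads in SCR 1 to 4 and 8.67, 8.98, 8.52, 8.32 and 8.47% in KO 1 to 5 (log2 fold change -0.18, SE 0.07, edgeR adjusted p = 0.457). Trbv26 had 4.93, 5.70, 5.16 and 4.62% in SCR and 5.95, 5.69, 5.97, 5.45 and 5.84% in KO mice (log2 fold change 0.18, SE 0.09, edgeR adjusted p = 0.490). Both pairs of groups overlapped. The log2 fold change was 0.09 (SE 0.05) for Trbv4 and -0.10 (SE 0.08) for Trbv12-1. Trbv12-1 and Trbv12-2 are close copies, and 88.0 to 97.5% of the Trbv12-2 reads of a mouse had CDR3 nucleotides that were also listed under Trbv12-1, so the division of reads between them is uncertain. When each listed clonotype was counted once in place of its reads, 7 of 15 V genes passed, 3 higher and 4 lower in KO. When this was done for clonotypes of at least 0.001% only, an alternative chosen after the data were seen, 2 of 13 V genes passed. Trbv12-1 then made up 13.7, 15.9, 12.2 and 13.3% of clonotypes in SCR and 12.0, 11.2, 11.5, 11.5 and 10.9% in KO mice (log2 fold change -0.23, edgeR adjusted p = 0.0111). Trbv26 made up 6.83, 6.01, 7.12 and 6.83% in SCR and 7.88, 7.55, 7.58, 8.09 and 8.32% in KO mice (log2 fold change 0.22, edgeR adjusted p = 0.0309). Neither overlapped between the groups. Trbv14 (edgeR adjusted p = 0.0936) and Trbv16 (edgeR adjusted p = 0.103) did not overlap either and did not pass, and the rest of the 13 overlapped.

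Another 9 V genes were nearly absent from the blood tables of both groups but had UMIs in the tumour libraries. These were Trbv1, Trbv2, Trbv3, Trbv13-1, Trbv13-2, Trbv13-3, Trbv23, Trbv24 and Trbv29. Together they held 0.00919% of reads on average over the 9 mice. In the single-cell libraries of leukocytes sorted from tumours, with 1 library per genotype, they held 852 of 1566 V gene UMIs (54.4%, 95% Wilson interval 51.9 to 56.9%) in SCR and 968 of 2118 (45.7%, 43.6 to 47.8%) in KO. These intervals cover counting error only. The UMIs of all V genes, 1566 and 2118, came from 406 cell barcodes in SCR and 510 in KO. All deposited barcodes were used, with no selection of T cells and no removal of doublets. Trbv23 had 4 and 8 of these UMIs and Trbv24 had 8 in each library. Trbv13-2, a V gene known from natural killer T cells and from mucosal-associated invariant T cells, had 203 UMIs in the SCR and 173 in the KO tumour library but 878 of all blood reads, of which 849 were in KO 2. Trbv13-1 had 1337 reads in all, and 1319 of them were in KO 5. Conversely, Trbv4 held 12.5 and 13.3% of blood reads in the 2 groups and 0.766% and 0.614% of UMIs in the SCR and KO tumour library. The 2 assays differ in tissue and in method, which cannot be told apart here. Shares of V genes in these tables are therefore shares among the V genes that were read. The same limit holds for the shares, size classes, counts and diversity measures of clonotypes given above.

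**Figure D4:**
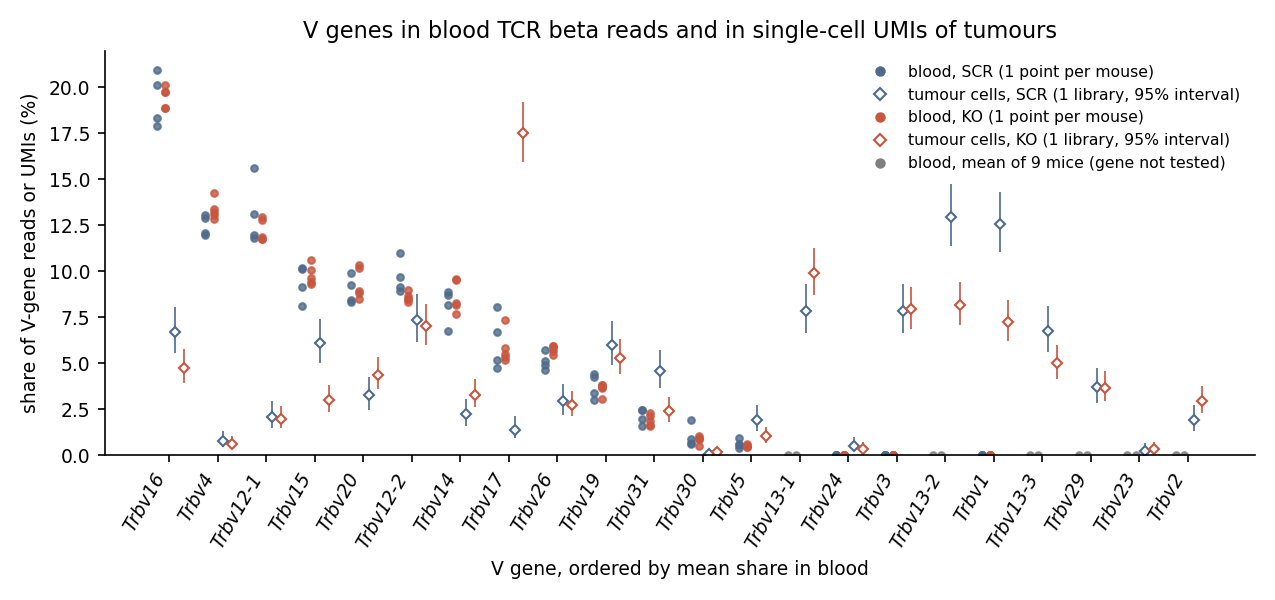
Share of V gene reads in blood (coloured points, 1 per mouse, or grey points for the mean of 9 mice where a gene was not tested) and of V gene UMIs in tumour leukocytes (open diamonds, 1 library per genotype, with 95% Wilson intervals) on the vertical axis, for V genes in order of their mean share in blood. The genes at the right, from Trbv13-1 on, have almost no blood reads (0.00919% in all) but 45.7 to 54.4% of tumour UMIs.

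Of the V genes known from natural killer T cells (Trbv1, Trbv13-1, Trbv13-2, Trbv13-3 and Trbv29), all 5 had reads but only Trbv1 had enough to be tested, and the list held 0.000167 to 0.0271% of reads per mouse. Of those known from mucosal-associated invariant T cells, only Trbv19 could be tested, at 3.77 ± 0.684% in SCR and 3.63 ± 0.311% in KO mice (log2 fold change -0.05, SE 0.13). Trbv31, which lies on the other side of the constant genes in inverted orientation, had 2.13 ± 0.423% and 1.93 ± 0.311% (log2 fold change -0.14, SE 0.17). None of the 11 V pseudogenes listed for the check had a read in any mouse, but the list did not hold every pseudogene. Of the 23 V and 14 J genes with reads, 1 of each was marked as a pseudogene. The median log2 fold change of all 16 V genes tested was -0.07.

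J gene usage by reads did not differ past the threshold either. Of 12 J genes tested, 0 passed (0%) with edgeR's quasi-likelihood test, 0 had an unadjusted p below 0.05, and DESeq2 called 0, with 4 at an unadjusted p below 0.05. With each listed clonotype counted once 6 of 12 passed, 5 higher and 1 lower in KO, and with those of at least 0.001% counted once 0 of 12. Trbj2-7 was joined to 38.4, 44.3, 41.3 and 40.2% of reads in SCR 1 to 4 and 40.5, 41.4, 39.1, 39.5 and 37.8% in KO 1 to 5 (log2 fold change -0.05, SE 0.04). It was followed by Trbj2-2 with 16.5 ± 1.39% and 17.1 ± 0.537%, Trbj1-1 with 13.3 ± 0.857% and 13.8 ± 0.266%, and Trbj1-2 with 12.5 ± 0.695% and 13.2 ± 0.887% (SCR and KO). The Trb locus holds 2 clusters of J genes, each behind its own D gene. The Trbj1 cluster was joined to 27.8, 26.9, 27.0 and 29.1% of reads in SCR 1 to 4 and 30.4, 28.3, 30.0, 29.6 and 30.5% in KO 1 to 5. Its share was 2.07 percentage points higher in KO (exact permutation p = 0.0317, adjusted p = 0.0560), with KO 2 below SCR 4. All 6 of its tested members had a positive log2 fold change and 0 passed, with a median of 0.34 against 0.06 over all 12 J genes, and 1 of the 6 tested members of the Trbj2 cluster was positive (median -0.14).

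The 4 J genes of smallest p were among the less used ones. Trbj2-5 had 3.60, 3.67, 2.94 and 3.43% in SCR and 2.65, 3.06, 3.18, 3.10 and 2.92% in KO mice (log2 fold change -0.20, SE 0.09, edgeR adjusted p = 0.281). Trbj1-7 had 0.197, 0.223, 0.571 and 0.601% in SCR and 0.827, 0.618, 0.522, 0.720 and 0.550% in KO mice (log2 fold change 0.70, SE 0.35, edgeR adjusted p = 0.281). For both, the groups overlapped. Trbj2-3 (log2 fold change -0.36, SE 0.19) and Trbj2-4 (-0.29, SE 0.16) had the same adjusted p. With each clonotype counted once the log2 fold changes of these were 0.33 and 0.046, in the opposite direction. Without SCR 3, Trbj2-5 and Trbj2-3 passed (both edgeR adjusted p = 0.0431). Trbj1-3 had 1291 reads in SCR 1 and 0 to 4 in each other mouse, and Trbj2-6 had 2 reads in all.

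V-J pairs combine both choices. Of 142 pairs tested, 0 passed (0%) with edgeR's quasi-likelihood test and 8 had an unadjusted p below 0.05, while the groups did not overlap for 5 pairs. With each listed clonotype counted once 18 of 115 pairs passed, 13 higher and 5 lower in KO, and with those of at least 0.001% counted once 0 of 77. DESeq2 called 1 pair, Trbv31/Trbj2-2, which is named here because of that call, after its values were seen. Its reads lay mainly in KO 1 with 0.0687% and KO 4 with 0.0297%, against 0.000892% or less in the other 7 mice. The 5 most used pairs all had Trbj2-7, namely Trbv16/Trbj2-7 with 6.84 ± 0.669% of reads in SCR and 6.998 ± 0.330% in KO mice, Trbv4/Trbj2-7 with 5.21 ± 0.632% and 5.16 ± 0.501%, Trbv12-1/Trbj2-7 with 5.51 ± 0.945% and 4.82 ± 0.523%, Trbv15/Trbj2-7 with 4.04 ± 0.666% and 3.89 ± 0.335%, and Trbv19/Trbj2-7 with 3.57 ± 0.624% and 3.46 ± 0.279%. In KO 2, Trbv12-1/Trbj2-7 had 5.74% of reads with its largest clonotype and 4.49% without it.

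The pair of smallest p was Trbv16/Trbj1-7, with 0.0167, 0.00469, 0.0412 and 0.0584% of reads in SCR 1 to 4 and 0.0916, 0.0927, 0.190, 0.157 and 0.0815% in KO 1 to 5. The groups did not overlap, but the pair did not pass (log2 fold change 2.02, SE 0.70, edgeR adjusted p = 0.632). Trbv26/Trbj1-2 had 0.948, 0.798, 0.709 and 0.866% in SCR and 1.03, 1.00, 1.00, 1.13 and 0.996% in KO mice, again without overlap (log2 fold change 0.31, SE 0.12, edgeR adjusted p = 0.632). Trbv12-1/Trbj2-5 (log2 fold change -0.73, SE 0.26) and Trbv16/Trbj2-4 (-0.58, SE 0.22) overlapped between the groups.

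**Figure D5:**
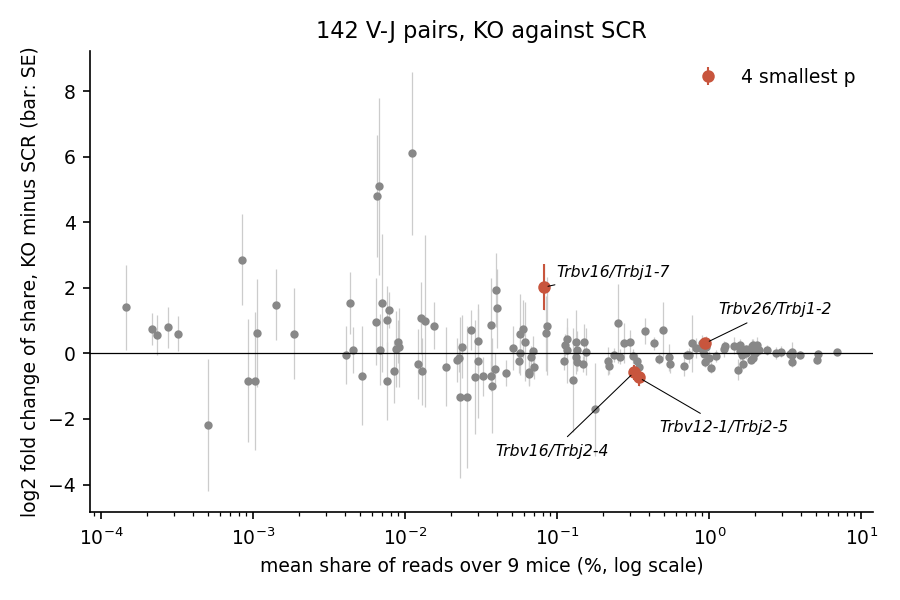
Log2 fold change of the share of reads, KO minus SCR (vertical axis, bars are SE), against mean share over 9 mice (horizontal axis, log scale) for 142 V-J pairs. The most used pairs lie near 0 and rare pairs scatter widely; the 4 of smallest p are coloured, and none passed.

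By reads, mice of unlike groups were not farther apart in V-J usage than mice of like groups past the threshold. The Bray-Curtis distance, which is 0 for the same usage and 1 for no pair in common, averaged 0.117 between and 0.110 within groups (exact permutation test, one-sided, p = 0.103). With the largest clonotype of each mouse left out, the difference of these means was 0.00896 (exact permutation test, one-sided, p = 0.0476, adjusted p = 0.0680, not passing). With shares of clonotypes in place of shares of reads, it was 0.0154 and passed (exact permutation test, one-sided, p = 0.00794, adjusted p = 0.0280). Most clonotypes in that count are rare listings, and it was not made without them. By reads, the distance averaged 0.152 among SCR mice and 0.0851 among KO mice, and the extremes were 0.0725 between KO 3 and KO 5 and 0.184 between SCR 2 and SCR 3. The entropy of V-J usage was 3.92 ± 0.0634 in SCR and 3.95 ± 0.0261 in KO mice (exact permutation p = 0.302).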

How the data were processed

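TCRβ sequences of blood RNA were analysed in 4 SCR and 5 KO mice. The authors deposited, per the file headers, a table of read counts per clonotype with its fraction of reads and its number of added bases, and a table of the fraction of reads per V-J pair. These fractions equalled the summed counts. The clonotype caller and molecular identifiers are not given in the sources used here. The submitters' processing notes list STAR 2.7.10a, StringTie 2.1.7, Cell Ranger and GRCm39 for the series, with no role. The deposited tumour single-cell tables hold UMI counts, from which no barcode was removed as a doublet. Reads per mouse ranged from 5277004 to 6912106, and intervals cover counting error only.

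Diversity and convergence were computed after thinning each mouse once to 5277004 reads, and size classes on all reads. Group means were compared by exact permutation tests over 126 assignments, with Benjamini-Hochberg adjustment over 30 measures, 23 of them in the planned design. V, J and V-J reads were tested with edgeR 4.0.16 (glmQLFit and glmQLFTest, R 4.3.3, library size all reads of the mouse, filterByExpr, adjusted p threshold 0.05). DESeq2 1.42.0 and limma 3.58.1 were alternatives. The measures were computed with Python 3.11.15, numpy 2.4.6, scipy 1.17.1 and pandas 2.3.3, and the code was tested on simulated data. Named genes were those past the threshold, otherwise the 4 of smallest p in each family, with the most used 5 V genes, 4 J genes and 5 V-J pairs. Named sequences were the largest clonotype of each mouse and the 3 CDR3s with most codings, summed over the mice. With them were up to 4 CDR3s of the 100 largest clonotypes with 3 or more codings there. The minimum of 0.001% for the codings of these 4 was set after the data were seen. Members and lists were chosen with earlier results of these data known. All 23 V and 14 J symbols matched RefSeq names.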

Additional observations from a re-analysis of the deposited data

Results flagged for a closer look

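Of 108 groups of 4 or 5 mice examined for 1 value far from the rest, 9 held one, and chance flags about 1 in 20 groups. In KO 2 the largest clonotype held 1.31% of reads (0.129 to 0.238% in the other KO mice), the 10 largest held 2.65% (0.958 to 1.41%), the largest 1% of clonotypes of at least 0.001% held 5.57% (4.27 to 4.55%), and Trbv12-1/Trbj2-7, the pair of its largest clonotype, held 5.74% (4.50 to 4.72%). These 4 values share that clonotype. In KO 1, convergent CDR3s made up 13.6% over all listings (13.3% in the other KO mice) and 3.87% among the 1000 largest clonotypes (2.36 to 2.68%), and Trbj2-3 held 0.429% of reads (0.490 to 0.513%). In KO 5, Trbv12-1/Trbj2-5 held 0.239% (0.265 to 0.276%), and in KO 4, Trbv26/Trbj1-2 held 1.13% (0.996 to 1.03%).

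Outside the blood tables, Trbv17 held 17.5% of the V gene UMIs (371 UMIs in 27 cell barcodes) of the KO tumour library and 1.41% (22 UMIs in 6 barcodes) of the SCR tumour library, with 1 library each and so no test. In blood it held 6.17 ± 1.51% of reads in SCR and 5.84 ± 0.864% in KO mice (SD, n = 4 and 5).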

How the results depend on the processing

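Values are differences of means, KO minus SCR, in the units of the report, and p is that of the exact permutation test before adjustment. Of the 16 measures that passed, all kept an exact p below 0.05 in each of the 9 sets that left out 1 mouse, but the adjusted p passed for 0 of 16 in 8 of these sets, where the smallest exact p is 0.0357 or 0.0286, and for 16 of 16 without KO 2. After adjustment, of the measures that passed, 16 of 16 did so without thinning and without the largest clonotype, 13 of 16 with at least 2 reads, 12 of 16 with at least 10 reads, 14 of 15 merged by protein sequence, 15 of 16 merged by nucleotide sequence, 13 of 15 at 0.001% or more, 14 of 16 without near-identical listings, 15 of 16 without listings under 1% of their share elsewhere, 15 of 16 with cysteine-to-phenylalanine CDR3s, 7 of 8 with class limits 2-fold lower and 5 of 8 with limits 2-fold higher.

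With listings of at least 2 reads, convergent CDR3s differed by 0.00861, codings per CDR3 by -0.00349, reads in convergent CDR3s by -3.22 and reads in CDR3s of 10 to 15 residues by 0.00155. With at least 10 reads these were 1.601, 0.0236, 3.90 and 0.0127, and reads and clonotypes below 0.001% differed by 0.0605 and 320.55. At 0.001% or more the first 3 were 1.44, 0.0204 and 3.88, mean length -0.104 and reads in 10 to 15 residues 0.0502. With near-identical codings of the same CDR3 left out, convergent CDR3s differed by -0.389 and their reads by 0.689. With all near-identical listings left out these were -0.441 (exact permutation p = 0.0159, adjusted p = 0.0280, passing) and 0.420, that of the 10000 largest -0.00752 and the largest 1% 0.127. Without listings under 1% of their share elsewhere, convergent CDR3s differed by 0.199 and codings by 0.000620. Merged by nucleotide sequence, the 10000 largest gave -1.21 (exact permutation p = 0.0159, adjusted p = 0.0265, passing, against 0.141 as listed, p = 0.714), and merged by protein sequence the largest 1% gave 0.118. With cysteine-to-phenylalanine CDR3s only, mean length differed by 0.0324, by reads by -0.00598, and 10 to 15 residues by 0.216. Without the largest clonotype, the 10 largest differed by -1.34 and the V-J distance by 0.00896 (0.0154 with shares of clonotypes). Class limits 2-fold lower gave -183.45 clonotypes in the top class, and 2-fold higher gave -14.05 and 3.94 points of reads in the 2 upper classes. The cause of these changes was not tested.

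Leaving out 1 mouse gave -1.41 to -0.605 for the 10 largest, 0.403 to 0.585 for reads below 0.001%, -0.308 to -0.180 for convergent CDR3s, -0.0131 to -0.00714 for codings per CDR3, -0.123 to 0.426 among the 10000 and -0.0218 to 0.542 among the 1000 largest, -0.272 to 0.102 for the largest 1%, -0.365 to 0.219 for 10 to 15 residues, 1.80 to 2.53 for the Trbj1 cluster, -0.00244 to 0.0226 for the V-J distance and 0 to 2 J genes (2 without SCR 3).

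With each clonotype counted once, 7 V genes, 6 J genes and 18 V-J pairs passed edgeR's test, and with those of at least 0.001% counted once 2 V genes; DESeq2 called 1 V-J pair. Log2 fold changes then changed sign for Trbj2-3 (0.33), Trbj2-4 (0.046) and Trbv16/Trbj2-4 (0.094), and at 0.001% or more for Trbv4 (-0.012), Trbj2-5 (0.10) and Trbj1-7 (-0.21).

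Same-numbered mice correlated at 0.220, 0.371, 0.212 and 0.0995 over 90 V-J pairs, and 1 of the 4 SCR mice correlated best with its own number, so the numbers were not taken as pairs. With a replicate block, edgeR called 0 V genes, 0 J genes and 0 V-J pairs; the largest 1% differed by 0.0525 and 10 to 15 residues by 0.0933, and the smallest p the paired test can give is 0.125. CDR3s with a stop codon or out of frame were planned to be left out, but 0 were listed.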
